A study of Mus musculus with 2 samples.

Results

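The 33 genes described here encode enzymes and regulators of sterol and fatty acid synthesis. They were chosen by name: 5 regulators (Srebf1, Srebf2, Scap, Insig1, Insig2), 16 enzymes of the sterol branch and 12 enzymes of the fatty acid branch. All 33 were found among the 28000 features counted in both libraries. Each was followed in aortic smooth muscle cells (SMCs) from 2 droplet single-cell RNA libraries, 1 per genotype, of male C57BL/6 mice at 24 weeks of age. The control library came from Myh11-CreERT2.mT/mG mice with intact Tsc1 (Tsc1+/+), and the KO library from Tsc1fl/fl.Myh11-CreERT2.mT/mG mice (Tsc1-/- in SMCs). Mice of both groups received tamoxifen at 1.5 weeks of age, so both carried the active recombinase and the switched reporter. Myh11-CreERT2 is a tamoxifen-inducible recombinase under an SMC promoter, and mT/mG is a reporter whose fluorescence switches from red tdTomato to green eGFP after recombination. Tsc1 encodes hamartin, part of the complex that restrains the growth kinase complex mTORC1. Thoracic aortas were digested with collagenase and elastase, and viable GFP-positive cells were sorted. How many animals were pooled for a library is not given here.

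Labelled cells, those with at least 5 eGFP UMIs (unique molecular identifiers, each counting 1 captured RNA molecule), 500 or more genes, and mitochondrial transcripts making up no more than 10% of UMIs, numbered 1692 of 2095 in the control library and 1919 of 2097 in the KO library. They held 20011501 and 30778165 UMIs, with medians of 11665 and 15012 per cell. The 2 libraries shared 16 cell barcodes (4 of them among labelled control and 5 among labelled KO cells), and leaving these out changed no call in the 3 comparisons where it was tried. Levels are given as CPM, a gene's UMIs per 1000000 UMIs of the cells summed, with exact Poisson 95% intervals. Ratios carry exact conditional binomial 95% intervals. With 1 library per genotype there was no test, and these intervals cover counting error only, not the spread between mice or preparations. A gene was called higher or lower when its ratio reached 1.5 or 1/1.5, among genes whose 2 compared levels averaged at least 10 CPM. Tsc1 itself had 191 control UMIs (9.54 CPM) and 263 KO UMIs (8.55 CPM), a ratio of 0.895 (0.740 to 1.08). Reads of this assay come from transcript ends, which may lie outside the floxed part, so this value does not check the genotype labels. The labelled cells carried SMC markers: Acta2, Myh11, Tagln, Cnn1, Myl9 and Lmod1 together made up 42749 CPM of control and 20534 CPM of KO transcripts.

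Cells make cholesterol and fatty acids from the same precursor, acetyl-CoA. The sterol branch runs from acetyl-CoA through mevalonate, isoprenoids, squalene and lanosterol to cholesterol, and the fatty acid branch makes palmitate, which is then elongated and desaturated. Both are controlled by the SREBP transcription factors, encoded by Srebf1 and Srebf2. When membrane sterol is low, Scap carries SREBP from the endoplasmic reticulum to the Golgi, where proteases release the active factor. Insig1 and Insig2 hold Scap back when sterol is plentiful. SREBP made from Srebf2 is best known for sterol genes and the shorter forms made from Srebf1 for fatty acid genes, and mTORC1 is known to promote SREBP activity in several cell types.

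SREBP binds sterol regulatory elements, commonly next to sites for the factor NF-Y, which reads the CCAAT box. RefSeq promoter windows (GRCm38.p6, 250 bases before to 50 bases after a gene's start) were matched by symbol for 27 of the 33 members (all but Scd1, Scd2, Fads1, Fdps, Fdft1 and Sqle). The motif TCACNCCAC, a form of the sterol regulatory element, was found on either strand in 1 of these 27, Hmgcs1, against 1.44% of all 27025 genes with a window of the same length. CCAAT on either strand was found in 22 of the 27 members (81.5%), against 41.1% of all genes. A gene with several windows, from different starts, counted when any of them matched. By window, CCAAT was in 23 of 37 member windows, against 37.4% of all 32851. Counted by gene, CCAAT was present in 12 of 13 sterol enzymes, 6 of 9 fatty acid enzymes and 4 of 5 regulators. The motif CACGTG, an E-box, was in 5 of 27 members (18.5%) and in 8.09% of all genes. No motif is contained in another, though TCACNCCAC and CACGTG can share letters at their ends. A match is a description of the window, not evidence of binding. The windows printed show the range: Hmgcs1 has the only sterol element match, Mvk and Fasn are enzymes of each branch with several CCAAT boxes, and Elovl6, whose KO to control ratio was the highest of the 33, has neither motif. Sequences run 5′ to 3′ on the strand of the gene, with matches to TCACNCCAC and CCAAT, or their reverse complements, in capitals.
Hmgcs1 promoter, chr13:119690101-119690400, plus strand: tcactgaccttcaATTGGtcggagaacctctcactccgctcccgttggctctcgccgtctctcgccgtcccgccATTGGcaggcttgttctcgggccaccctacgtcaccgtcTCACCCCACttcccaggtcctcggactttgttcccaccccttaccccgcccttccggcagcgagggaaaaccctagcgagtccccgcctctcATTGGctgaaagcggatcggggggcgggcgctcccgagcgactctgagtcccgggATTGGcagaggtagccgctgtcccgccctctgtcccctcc
Mvk promoter, chr5:114444019-114444318, plus strand: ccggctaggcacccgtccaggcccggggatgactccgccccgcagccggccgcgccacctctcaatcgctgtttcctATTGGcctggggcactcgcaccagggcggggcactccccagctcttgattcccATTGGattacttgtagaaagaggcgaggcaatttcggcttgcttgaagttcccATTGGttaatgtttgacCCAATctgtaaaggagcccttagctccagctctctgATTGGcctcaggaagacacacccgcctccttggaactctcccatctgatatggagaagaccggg
Fasn promoter, chr11:120824498-120824797, minus strand: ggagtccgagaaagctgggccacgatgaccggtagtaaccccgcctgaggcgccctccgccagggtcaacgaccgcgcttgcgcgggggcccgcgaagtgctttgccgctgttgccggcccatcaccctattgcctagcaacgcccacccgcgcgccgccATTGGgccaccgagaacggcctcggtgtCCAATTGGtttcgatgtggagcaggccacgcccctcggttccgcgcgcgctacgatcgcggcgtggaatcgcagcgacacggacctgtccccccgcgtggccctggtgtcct
Elovl6 promoter, chr3:129532136-129532435, plus strand: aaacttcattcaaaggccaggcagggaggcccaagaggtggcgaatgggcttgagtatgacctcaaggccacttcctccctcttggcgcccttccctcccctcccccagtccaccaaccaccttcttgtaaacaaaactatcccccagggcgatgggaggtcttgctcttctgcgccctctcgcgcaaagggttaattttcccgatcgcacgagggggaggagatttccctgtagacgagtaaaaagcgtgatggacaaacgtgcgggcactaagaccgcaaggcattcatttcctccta

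The first comparison asked how these transcripts differ in aortic SMCs with and without Tsc1. Of the 33 members, 27 passed the filter on low levels. In the KO library 4 of these were called higher (Scap, Insig1, Scd1 and Scd2) and 0 lower, where 11.8% of all 7720 genes tested were called higher and 10.8% lower. The share of members called, 14.8%, was near that background. As a description, 20 of the 27 ratios lay above 1, and the median log2 ratio was 0.38 for the members and -0.01 for all genes tested. Summed over a branch, fatty acid enzymes stood at 347 CPM in control and 466 CPM in KO cells, a ratio of 1.34 (1.30 to 1.38). Sterol enzymes stood at 375 and 421 CPM, a ratio of 1.12 (1.09 to 1.16).

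Among regulators, Scap, the SREBP escort, stood at 13.8 CPM (12.3 to 15.6) in control cells and at 22.8 CPM (21.1 to 24.5) in KO cells. The intervals lie apart, and the ratio was 1.65 (1.43 to 1.90). Insig1, a retention factor that is also a classical SREBP target, had 32.7 CPM (30.3 to 35.3) and 49.9 CPM (47.4 to 52.4), a ratio of 1.52 (1.39 to 1.67), just past the fold. Without the KO cells poorest in contractile transcripts the ratio of Insig1 was 1.27, short of the fold. It also fell short as a mean over cells and with contractile, mitochondrial and ribosomal protein UMIs left out of the total. Its ratio was past the fold in 10 of 13 alternatives. Insig2, the second retention factor, went the other way, with 87.8 CPM in control and 74.6 CPM in KO cells (ratio 0.849, 0.798 to 0.904), short of the fold. The genes of the SREBP factors themselves were close: Srebf1 had 22.0 and 23.1 CPM, a ratio of 1.05 (0.930 to 1.18). Srebf2 had 35.6 and 42.0 CPM, a ratio of 1.18 (1.07 to 1.29). These counts include every isoform of Srebf1, so forms made from different starts were not separated.

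No sterol enzyme was called in either direction among the 13 tested, whose median log2 ratio was 0.10. Under 6 of the 13 alternatives run 1 or 2 sterol enzymes were called higher, namely Mvk, Ebp, Nsdhl, Sc5d or Lss. At the entry of the pathway, Acat2, which joins acetyl-CoA units, had 10.5 and 14.4 CPM in control and KO (ratio 1.37, 1.16 to 1.62). Hmgcs1, which makes HMG-CoA, was slightly lower in the KO library, 52.3 against 45.8 CPM (0.877, 0.809 to 0.951). Of the kinases that phosphorylate mevalonate, Mvk had 15.6 and 22.9 CPM (1.46, 1.28 to 1.68), the highest ratio of this branch among tested members. Pmvk, the next kinase, was level at 37.6 and 36.4 CPM (0.967, 0.881 to 1.06). Neighbouring steps of the same pathway therefore had ratios on either side of 1.

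Among isoprenoid steps, the isomerase Idi1 had 27.9 and 27.0 CPM (0.968, 0.868 to 1.08). Fdps, farnesyl diphosphate synthase, stood at 55.2 CPM (52.0 to 58.6) in control and 71.8 CPM (68.9 to 74.9) in KO cells, a ratio of 1.30 (1.21 to 1.40). Squalene synthase, Fdft1, had 26.6 and 23.9 CPM (0.901, 0.805 to 1.01). The epoxidase Sqle, a rate-limiting step, was level at 23.9 and 24.7 CPM (1.03, 0.919 to 1.16). Late steps turn lanosterol into cholesterol. There Cyp51, the demethylase, had 27.8 and 29.9 CPM (1.07, 0.966 to 1.20), and Msmo1, the methyl oxidase, 39.4 and 42.2 CPM (1.07, 0.980 to 1.17). The next enzymes had higher ratios that still missed the fold. Nsdhl had 10.9 and 15.2 CPM (1.40, 1.19 to 1.65), the isomerase Ebp 22.7 and 32.8 CPM (1.45, 1.29 to 1.62), and the desaturase Sc5d 11.7 and 16 CPM (1.36, 1.16 to 1.59).

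The largest differences were in the desaturation and elongation of fatty acids. Scd2, a stearoyl-CoA desaturase that makes monounsaturated fatty acids (chromosome 19, 44293674 to 44306864, mm10), stood at 49.1 CPM (46.1 to 52.3) in control and 116 CPM (112 to 120) in KO cells. The ratio was 2.36 (2.19 to 2.53), and it stayed past 1.5 under all 13 alternatives run, between 2.06 and 2.53. Its neighbour on the chromosome and close paralog Scd1 (44394455 to 44407879) had 24.3 CPM (22.2 to 26.5) and 42.1 CPM (39.9 to 44.5), a ratio of 1.74 (1.56 to 1.93). Of the transcript windows of 60 bases, 2.73% for Scd2 and 3.68% for Scd1 also occur in other genes, each other among them. These shares cover whole transcripts, and sharing at the transcript ends, where reads of this assay fall, was not measured. Fads1, the delta-5 desaturase of polyunsaturated fatty acids, had 36.3 and 51.7 CPM (1.42, 1.30 to 1.55).

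The enzymes that make palmitate differed less. Acly, which releases acetyl-CoA from citrate, had 33.5 and 47.0 CPM (1.40, 1.28 to 1.54). Acaca, acetyl-CoA carboxylase, had 13.3 and 17.3 CPM (1.30, 1.12 to 1.51), and fatty acid synthase, Fasn, 18.9 and 27.0 CPM (1.43, 1.26 to 1.61). All 3 ratios lay between 1.30 and 1.43, short of the fold. The elongases Elovl1 (59.6 and 58.8 CPM; 0.986, 0.916 to 1.06) and Elovl5 (27.1 and 28.2 CPM; 1.04, 0.933 to 1.16), which act on very long and polyunsaturated chains, were level. Me1, malic enzyme, which supplies NADPH for synthesis, was lower in the KO library, 69.4 against 55.0 CPM (0.793, 0.738 to 0.852), the lowest ratio among tested members. The plot of levels by library shows the same order.

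**Figure D1:**
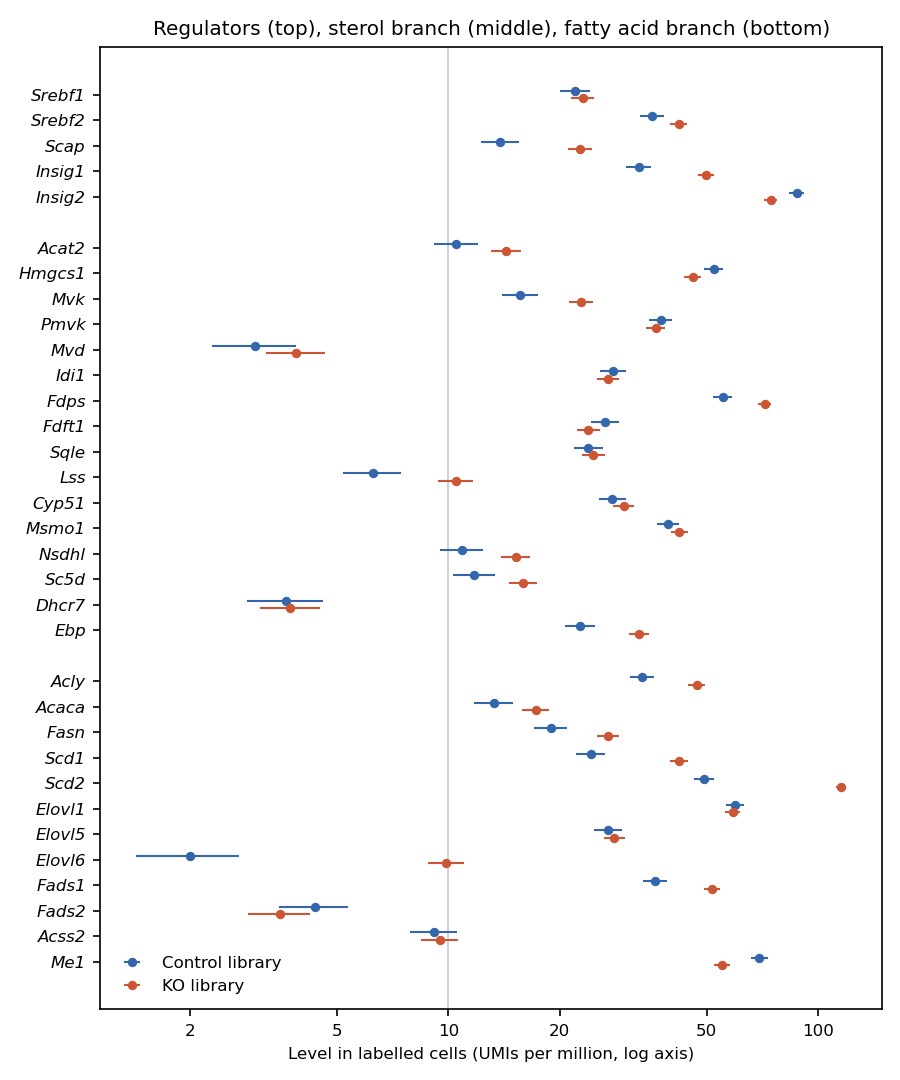
Level of each of the 33 genes in labelled cells of the control (blue) and KO (orange) library, in CPM on a log axis; horizontal bars are exact Poisson 95% intervals of counting error, and the grey line marks 10 CPM. Scd2 is the gene with the widest gap among those above the line, 49.1 against 116 CPM. In the middle block the intervals of Pmvk, Mvd, Idi1, Fdft1, Sqle, Cyp51, Msmo1 and Dhcr7 overlap. Those of Acat2, Hmgcs1, Mvk, Fdps, Lss, Nsdhl, Sc5d and Ebp lie apart, with Hmgcs1 lower in KO cells and the others higher.

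The other 6 members averaged under 10 CPM in this comparison. Elovl6, the elongase that takes palmitate to stearate, the substrate of Scd enzymes, had 40 control and 304 KO UMIs, which is 2.0 CPM (1.43 to 2.72) against 9.88 CPM (8.80 to 11.1). Its ratio of 4.94 (3.55 to 7.05) was the highest of all 33, and its exons overlap a counted gene on the opposite strand, as do those of Lss. Lss, lanosterol synthase, had 6.25 and 10.5 CPM (1.67, 1.36 to 2.08). The ratios of the remaining 4 (Mvd, Dhcr7, Fads2 and Acss2) ran from 0.807 to 1.29, each with an interval that includes 1.

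Part of the branch differences came from single genes. Without Scd2 the fatty acid branch ratio was 1.17 (1.14 to 1.21), and without Fdps the sterol ratio was 1.09 (1.06 to 1.13). The fatty acid ratio divided by the sterol ratio was 1.19 (1.15 to 1.24) with all members and 1.08 without these 2 genes. Per cell, KO cells held 6.76 sterol and 7.47 fatty acid UMIs on average, against 4.44 and 4.10 in control cells, but they also held more UMIs in all.

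Cells with a UMI were also counted. With every cell thinned to 5000 UMIs (90 control and 17 KO cells with fewer were left out), Scd2 was detected in 21.7% (19.7 to 23.8, exact binomial) of 1602 control cells and 39.7% (37.5 to 41.9) of 1902 KO cells. Unthinned shares were 40.3% and 70.6%. Scd1 was detected in 10.5% of control and 18.0% of KO cells after thinning, and Elovl6 in 1.0% and 4.6%. For comparison, of 65 control-library cells without any eGFP UMI that could be thinned (265 of 330 were too shallow, with a median of 3750 UMIs overall), 10.8% (4.44 to 20.9) had a Scd2 UMI and 9.23% (3.46 to 19.0) a Scd1 UMI. The interval of the control Scd2 share overlaps that of the unlabelled cells, and the KO share lies above it. These unlabelled cells carried markers of macrophages and lymphocytes, which can express Scd genes. They were also chosen for having no eGFP UMI, a choice that favours cells with little free RNA from labelled cells. They therefore give neither the level of free RNA of the control library nor an upper limit to it. Their 6 SMC markers summed to 149 CPM, against 42749 CPM in labelled control cells. Free RNA of the KO library, where 13 cells had no eGFP UMI, was not measured, so the unlabelled control cells cannot judge the KO shares. The Scd1 shares of both libraries lie within the Scd1 interval of the unlabelled cells. Those of Elovl6 lie within its interval too, which rests on 1 of 65 unlabelled cells (1.5%, 0.039 to 8.28). These overlaps cannot tell free RNA from expression, and the part of free RNA in the Scd1 and Elovl6 shares was not tested. After thinning, 81.3% of control and 87.9% of KO cells held at least 1 fatty acid branch UMI, and 78.5% and 77.5% at least 1 sterol UMI.

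**Figure D2:**
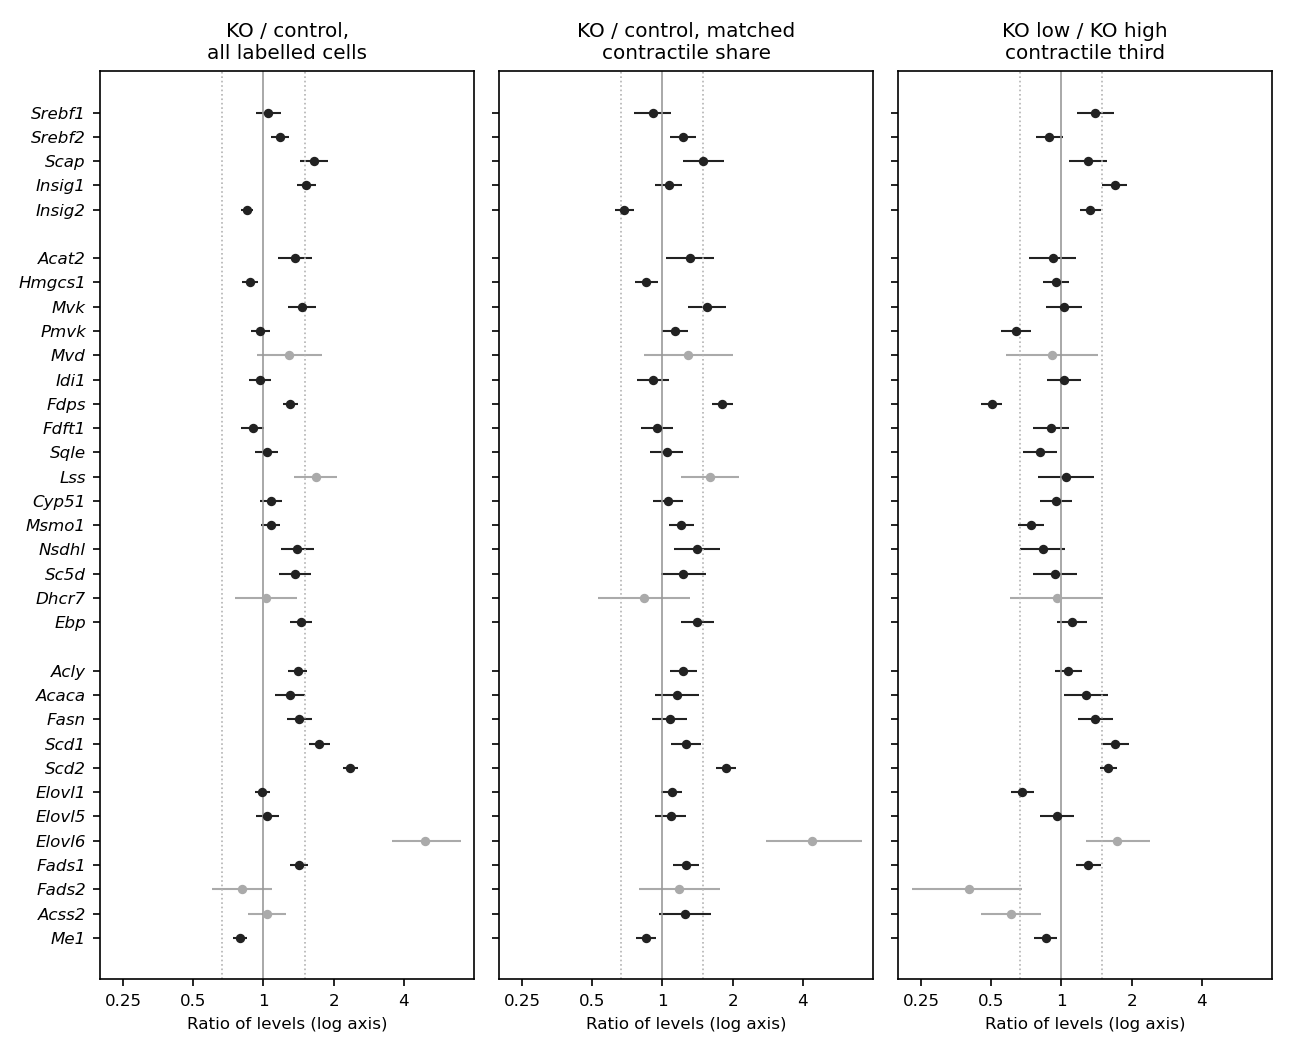
Ratio of levels for each of the 33 genes, on a log axis, in 3 comparisons: KO over control in all labelled cells (left), KO over control in cells of the same range of contractile share (middle), and KO cells low over KO cells high in contractile share (right). Bars are exact 95% intervals of counting error, dotted lines mark 1.5-fold, and grey points are genes averaging under 10 CPM; Scd2 stands right of the dotted line in every panel (2.36, 1.87 and 1.59), while Fdps is left of it at 0.502 in the right panel and right of it at 1.8 in the middle one.

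SMCs of the aorta range from contractile cells to cells that have lost contractile transcripts, often called modulated. The contractile share, the percentage of a cell's UMIs from 13 contractile genes, had a median of 5.15% in control and 2.25% in KO cells. KO cells were therefore split at 1.38% and 3.15% into terciles of 640, 640 and 639 cells. These are ranges of a score and not cell types, and 151 and 137 KO cells lie within 0.2 percentage points of the cut-offs. The sum of 6 fibroblast markers was 2143 CPM in the low and 299 CPM in the high KO tercile. Its part in the results below was not tested.

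Within the KO library the branches differed in opposite directions. Sterol enzymes summed to 390 CPM in the low and 484 CPM in the high tercile, a ratio of 0.806 (0.773 to 0.840), while fatty acid enzymes summed to 494 and 426 CPM, a ratio of 1.16 (1.12 to 1.21). The ratio of these ratios was 1.44 (1.36 to 1.53). Of 28 members tested, 3 were called higher in low-tercile cells and 2 lower, where 11% of all 7679 genes were called higher and 8.14% lower. The counts are thus near the background, and the members' median log2 ratio was -0.01, against 0.02 for all genes.

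Fdps carried most of the sterol difference. Its level was 53.0 CPM in the low, 56.7 CPM in the intermediate and 106 CPM in the high KO tercile, so that only the high tercile stood apart. The low to high ratio was 0.502 (0.453 to 0.556), and the intermediate to high ratio 0.537 (0.484 to 0.596). In that second comparison Fdps was the sole member of 29 tested that was called lower (1.72% of all genes were), and 0 were called higher (4.34%). Pmvk had 28.8, 35.7 and 45.0 CPM in the same order, a low to high ratio of 0.639 (0.552 to 0.739). Msmo1, at 37.5 and 50.7 CPM, had a ratio of 0.740 (0.649 to 0.844) and was not called. Without Fdps the sterol ratio was 0.890 (0.851 to 0.932), and 10 of the 14 tested sterol enzymes, Fdps included, had ratios below 1. Of the Fdps transcript windows of 60 bases, 25% also occur in other genes, so its level is less certain than that of Scd2. Without the members over 10% by this measure (Acat2, Acaca, Fdps, Me1 and Idi1), the sterol ratio was 0.878.

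The members higher in low-tercile cells were Insig1, Scd1 and Scd2. Scd2 had 142 CPM in the low, 114 CPM in the intermediate and 89.6 CPM in the high tercile, a low to high ratio of 1.59 (1.46 to 1.73). Scd1 followed the same order, with 52.6, 42.3 and 31.0 CPM (1.70, 1.48 to 1.95). Both desaturases were thus higher at each step down in contractile share. Insig1 had 65.0, 45.2 and 38.3 CPM (1.69, 1.50 to 1.92). Other fatty acid genes differed less: Fasn had 30.7 and 22.0 CPM in low and high cells (1.40, 1.18 to 1.66), and Fads1 57.9 and 44.4 CPM (1.30, 1.15 to 1.47). Elovl1 was opposed to its branch, 48.6 against 71.5 CPM (0.679, 0.606 to 0.761). Elovl6, below the filter, had 10.9 CPM in the low and 6.26 CPM in the high tercile. Without Scd2 the branch ratio was 1.05 (0.999 to 1.10), so most of the fatty acid difference between KO terciles was that of Scd2.

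**Figure D3:**
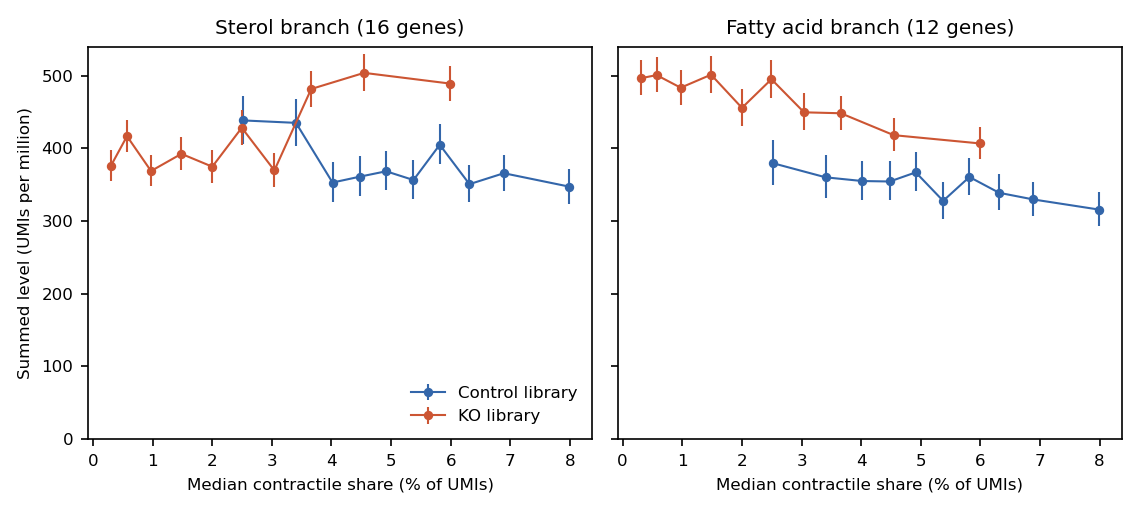
Summed level of the sterol branch (left) and the fatty acid branch (right) in CPM, against the median contractile share of each of 10 equal groups of cells per library; bars are exact Poisson 95% intervals. In KO cells (orange) the sterol sum is 376 CPM in the lowest and 489 CPM in the highest group and the fatty acid sum 496 and 407 CPM, while in control cells (blue) both are higher in the lowest group.

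**Figure D4:**
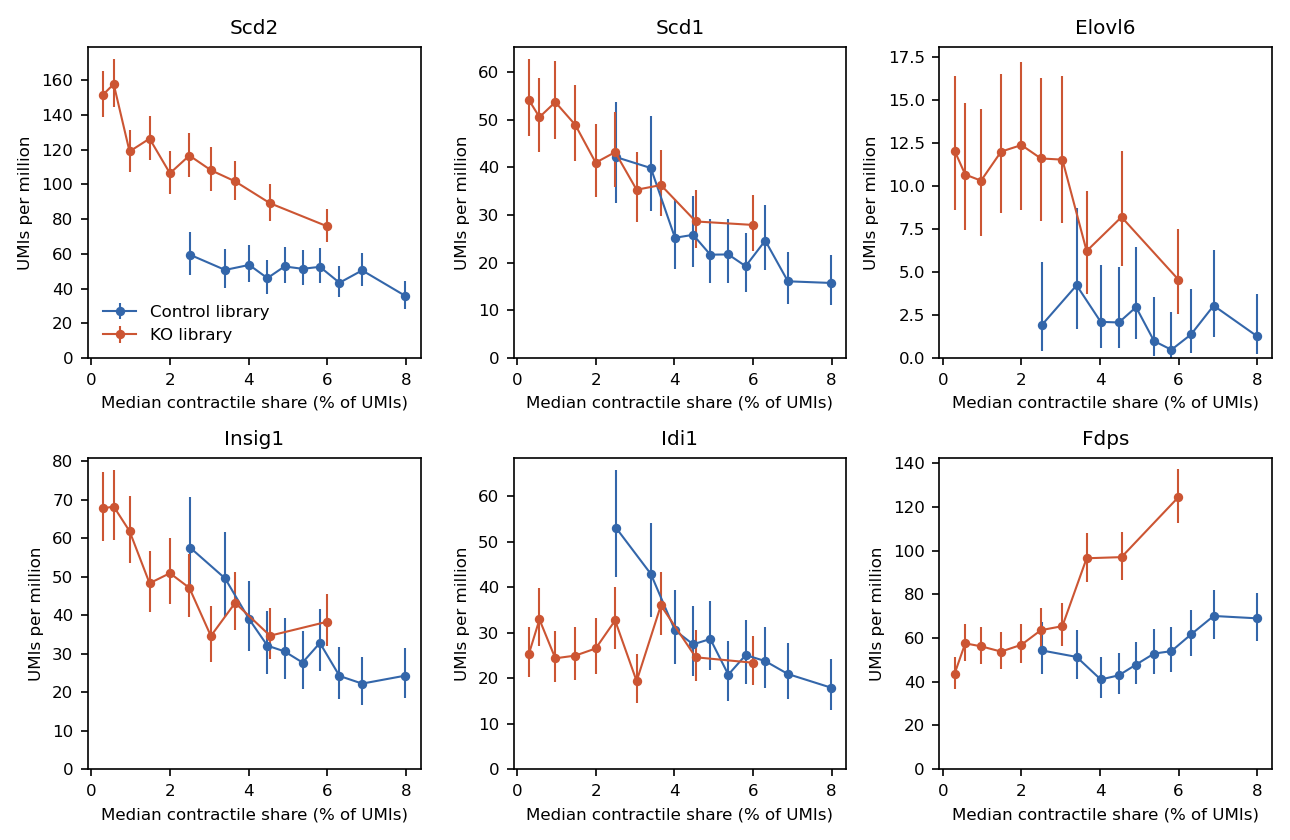
Levels of 6 members in CPM against the median contractile share of 10 equal groups of cells per library, with exact Poisson 95% intervals. Scd2 in KO cells runs from 152 CPM in the lowest to 75.9 CPM in the highest group, above control cells throughout. Fdps runs the other way, from 43.6 to 125 CPM in KO cells and from 54.3 to 69.0 CPM in control cells. Idi1 runs from 53.0 to 17.9 CPM in control and from 25.3 to 23.4 CPM in KO cells.

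The same gradient was described in the control library, whose terciles of 564 cells each were divided at 4.39% and 5.88% contractile share. Here 6 of 27 members tested were called higher in low-tercile cells and 0 lower, where 14% of all 7592 genes were called higher and 1.74% lower, and the median of all genes was itself shifted to 0.17. The members' median log2 ratio was 0.21. Insig1 had 45.7 CPM in the low and 25.9 CPM in the high tercile (1.77, 1.46 to 2.14), and Insig2 109 and 69.6 CPM (1.57, 1.39 to 1.76). Both Scap-retaining factors were thus highest in the least contractile control cells. Idi1 had 41.0 and 21.3 CPM (1.92, 1.57 to 2.36), and Sqle 31.4 and 20.4 CPM (1.54, 1.24 to 1.92). Neither was called in the KO gradient, where Idi1 had 28.1 and 27.4 CPM in the outer terciles; the difference between the gradients was not tested. Scd1 had 35.1 and 18.0 CPM (1.95, 1.56 to 2.44), and Fasn 21.9 and 14.4 CPM (1.52, 1.17 to 1.98).

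Summed over all their members, the 2 branches did not part in control cells. The low to high ratio was 1.13 (1.07 to 1.20) for sterol and 1.12 (1.05 to 1.19) for fatty acid enzymes, and their ratio 0.988 (0.912 to 1.07), against 1.44 in the KO library. Fdps ran against its branch, with 47.8 CPM in low and 66.1 CPM in high control cells. Without Fdps the control sterol ratio was 1.22 (1.15 to 1.30), and without Scd2 the fatty acid ratio was 1.10 (1.03 to 1.17). The likeness of the sums thus rested in part on Fdps. Control cells with a UMI of the homeobox genes Dlx5, Dlx6 or Msx2, a population chosen after values were seen, made up 43.1% of the low and 7.27% of the high tercile. Without them 4 members were called higher (Insig1, Idi1, Sqle and Fasn) and 1 lower (Fdps), and the ratio of Scd1 was 1.30. The pericyte marker sum also moved with the gradient, from 1699 CPM in low to 530 CPM in high control cells, and its part was not tested.

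To compare the libraries over the same range of contractile share, cells with a share between 2.52% and 5.99% were taken, 1077 from the control and 759 from the KO library. Inside this range the median share was still 4.57% in control and 3.67% in KO cells. Median depth was 11083 and 14234 UMIs. The part of these remaining differences in the ratios below was not tested. Within this range 3 of 28 members tested were called higher in KO cells (Mvk, Fdps and Scd2) and 0 lower, where 8.74% of all 7703 genes were called higher and 10.5% lower. Scd2 had 52.2 CPM in control and 97.4 CPM in KO cells, a ratio of 1.87 (1.69 to 2.06). It lay between 1.81 and 2.01 under all 13 alternatives run. Elovl6, below the filter, had 1.98 and 8.67 CPM (4.39, 2.79 to 7.16). These 2 fatty acid genes kept most of the difference seen over all labelled cells.

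Scd1 and Insig1 did not. Scd1 had 26.3 and 33.1 CPM (1.26, 1.08 to 1.47), and with Acta2 and Tagln left out of the contractile share its ratio was 0.930. Insig1 had 35.6 and 37.9 CPM (1.06, 0.930 to 1.22). Fdps, in contrast, was further apart than before, 48.2 CPM in control against 86.9 CPM in KO cells (1.8, 1.63 to 2.0), and Mvk had 15.1 and 23.5 CPM (1.55, 1.28 to 1.88). With cells thinned to 5000 UMIs both calls ended, with a ratio of 1.47 for Fdps, and Mvk stayed past the fold in 10 of 13 alternatives. Insig2 was lower in KO cells, 97.1 against 66.6 CPM (0.686, 0.626 to 0.752), just short of the fold. At matched share the branches differed alike, with ratios of 1.20 (1.15 to 1.25) for sterol and 1.23 (1.18 to 1.28) for fatty acid enzymes. Of the matched control cells 27.3% had a Dlx5, Dlx6 or Msx2 UMI, against 5.53% of KO cells. Without such cells 7 members were called higher (Scap, Mvk, Fdps, Nsdhl, Ebp, Scd1 and Scd2).

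Depth moved with the sterol values. KO cells of under 10000 UMIs had a sterol sum of 354 CPM (330 to 380), and those of 20000 or more 495 CPM (482 to 509). Fdps ran from 40.0 to 102 CPM over the same range. In control cells the sterol sum was 369 CPM and 374 CPM in these classes, and 396 CPM at 15000 to 20000 UMIs. The class of 20000 or more held 57 control and 417 KO cells, with median contractile shares of 5.14% and 1.90%. At 10000 to 15000 UMIs the sterol sum was 368 CPM in control and 351 CPM in KO cells, the reverse of the order over all cells, while the fatty acid sum was 342 and 441 CPM. In this depth class the fatty acid difference between libraries was therefore present, and the sterol difference was not. Within the KO library at that depth the low tercile had 334 CPM and the high tercile 411 CPM of sterol transcripts, and at 20000 UMIs or more 460 and 578 CPM, so the order of the terciles held in both classes.

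**Figure D5:**
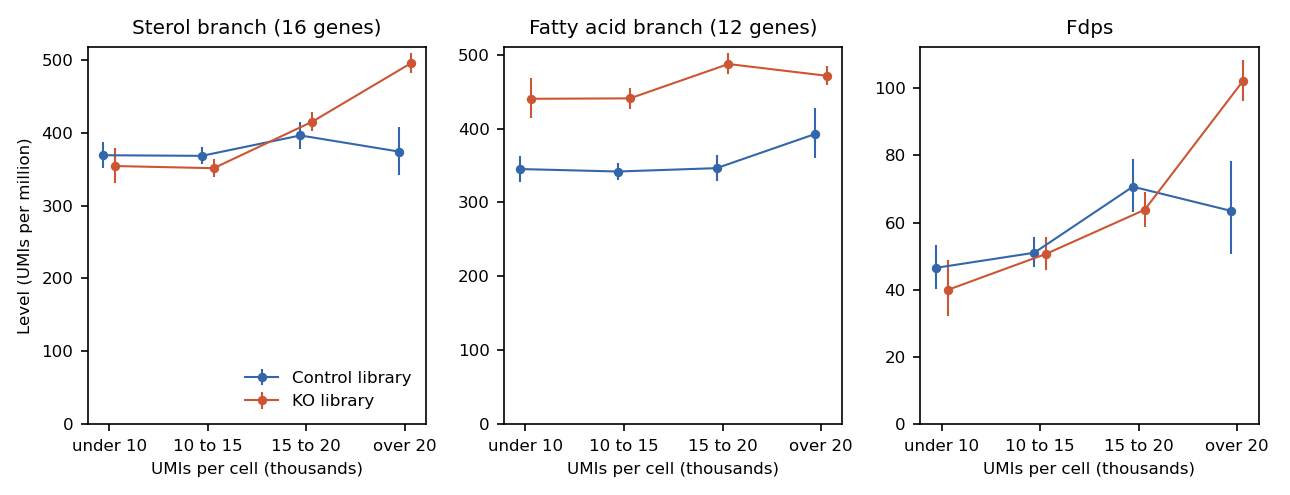
Summed level of the sterol branch (left), of the fatty acid branch (middle) and of Fdps (right) in CPM, for cells of 4 classes of total UMIs in the control (blue) and KO (orange) library, with exact Poisson 95% intervals. Fatty acid levels are higher in KO cells in every class, while sterol levels differ mainly above 20000 UMIs, 374 against 495 CPM. That class holds 57 control and 417 KO cells.

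Markers of other lipid-making cells were low in the labelled cells. Of 7 adipocyte markers, which summed to 124 CPM in control and 169 CPM in KO cells, Fabp4 gave nearly all, at 124 and 168 CPM, and it is also expressed by other vascular cells. Cidec, Cfd and Lep were at 0 in both libraries, and Adipoq was at 0 in control and at 0.0325 CPM in KO cells. The 6 macrophage markers summed to 17.8 and 15.1 CPM, and the 6 Schwann cell markers to 5.10 and 5.62 CPM. The 6 fibroblast markers summed to 483 CPM in control and 1030 CPM in KO cells, and to 504 and 338 CPM at matched contractile share. The 4 pericyte markers summed to 1005 and 479 CPM, and to 1222 and 446 CPM at matched share. The part of these markers in the differences between libraries was not tested. Dissociation stress genes summed to 13471 CPM in control and 7608 CPM in KO cells, and their part in the differences was not tested.

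Genes beside the 33 in the same pathways showed mixed directions between the libraries, where 11.8% of all genes were called higher and 10.8% lower. Among other sterol genes, Lbr, a sterol reductase of the nuclear envelope, had 20.1 CPM in control and 11.8 CPM in KO cells (0.587, 0.508 to 0.678) and was called lower. Of 8 genes for SREBP processing and turnover 7 were tested, with 1 called higher and 0 lower. That gene, Lpin1, a phosphatidate phosphatase known as an mTORC1-controlled brake on SREBP, had 17.8 and 31.2 CPM (1.75, 1.55 to 1.99), but 20.2 and 20.6 CPM at matched contractile share. The site-1 protease gene Mbtps1 was close, at 41.9 and 36.8 CPM.

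Of 22 other fatty acid and lipid assembly genes 10 were tested, with 3 called higher and 1 lower. Higher were Acsl5, an acyl-CoA synthetase, at 17.6 and 36.0 CPM (2.04, 1.81 to 2.31), Hsd17b12, the reductase of the elongation cycle, at 41.6 and 74.4 CPM (1.79, 1.65 to 1.94), and Slc25a1, the citrate exporter that feeds Acly, at 28.1 and 44.9 CPM (1.60, 1.45 to 1.76). These 3 were also past the fold at matched contractile share, with ratios of 1.91, 1.85 and 1.65. Hacd1, a dehydratase of elongation abundant in muscle, was lower, 253 against 124 CPM (0.490, 0.470 to 0.511), but at matched share it had 248 and 172 CPM (0.694, 0.656 to 0.734) and was not called. Fatty acid oxidation had 2 of 11 tested genes called higher and 0 lower. The pair comprised Pdk4, a kinase that turns off pyruvate oxidation, at 8.84 and 24.7 CPM, and Cpt1a, the mitochondrial entry step, at 26.2 and 43.4 CPM. Along the KO gradient 5 of 12 oxidation genes were called lower in low-tercile cells (Acadl, Acadm, Acads, Acadvl and Hadhb) and 2 higher (Ppargc1a and Pdk4), where 8.14% of all genes were called lower and 11% higher. Of 9 liver X receptor targets and sterol storage genes 5 were tested, and 1, Nr1h3, which encodes the sterol-sensing receptor itself, was called higher, at 7.70 and 17.1 CPM (2.22, 1.86 to 2.68).

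The authors' deposited table of cluster means, with 16 columns of mean counts per 10000, lists all 33 members. It has no error or number of cells, and some columns have eGFP at or near 0, so they hold other cells than the labelled ones. In this table cluster 2 of the KO library, where the 13 contractile genes sum to 108 counts, has a fatty acid sum of 4.57 and a sterol sum of 3.79. Clusters 1 and 0 of the KO library, in the authors' deposited table at 419 and 548 contractile counts, have fatty acid sums of 3.49 and 3.70 and sterol sums of 4.66 and 5.44. Clusters 3 and 4 of the KO library, between these with 298 and 182 contractile counts in the authors' deposited table, have fatty acid sums of 4.49 and 4.59 and sterol sums of 4.47 and 3.81. In the authors' deposited table the contractile control clusters 1 and 0 have fatty acid sums of 3.12 and 3.28 and sterol sums of 3.62 and 3.67. Control cluster 4 in the authors' deposited table, at 344 contractile counts, has 3.80 and 4.49, so its fatty acid sum is above those of KO clusters 1 and 0 and its sterol sum above that of KO cluster 2. Scd2 is at 1.26 in KO cluster 2 and at 0.443 and 0.440 in control clusters 1 and 0 of the authors' deposited table, while KO clusters 1 and 0 have 0.468 and 1.0. KO cluster 3 has 1.14, but KO cluster 4 has 0.170, below those control clusters. Control cluster 2 in the authors' deposited table, at 218 contractile counts and with eGFP at 39.7, has Scd2 at 0.874, above control clusters 1 and 0. Its fatty acid sum is 2.44 and its sterol sum 3.38, with Srebf1, Srebf2, Scap and Fdps at 0. In KO cluster 4 Scap, Insig1, Mvk and Sqle are at 0, and Acat2, Fdft1, Msmo1 and Acaca share the value 0.240. How many cells KO cluster 4 and control cluster 2 hold is not given, so their values are uncertain.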

How the data were processed

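The authors deposited 1 matrix of raw UMI counts per library and a table of cluster means. The submitters' processing notes name Seurat 2.0, Cell Ranger, bcl2fastq and the mm10 build. Versions of Cell Ranger and bcl2fastq, the way cells were called and the use of strand in counting were not given in these sources. The deposited cluster means were read as linear values of counts per 10000, since each column sums to 10000. Counts were summed over the labelled cells of each library (at least 5 eGFP UMIs, 500 genes, at most 10% mitochondrial UMIs) and divided by their totals. Labelled cells held 20011501 control and 30778165 KO UMIs, so that 3 counts equal 0.150 and 0.0975 CPM. Doublets stayed in; Scrublet called 6 per library among labelled cells, and an alternative left them out. Thinning drew 5000 UMIs per cell.

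The filters, the named genes (all 33 members, in full at an average of 10 CPM or more, and of other lists up to 3 at either end), the marker lists and most alternatives were written down first, but the members and lists were chosen with earlier results of these data known. Gene positions and shared 60-base transcript windows came from the GENCODE annotation of mm10. Exons of Fdft1, Cyp51, Lss, Elovl1, Elovl6, Acss2, Me1 and Srebf1 overlap other counted genes on the opposite strand, those of Fdps a counted gene on the same strand, and Acat2, Acaca, Fdps, Me1 and Idi1 share over 10% of their windows with other genes, so these levels are uncertain. Python 3.11.15, numpy 2.4.6, scipy 1.17.1, pandas 2.3.3, scanpy 1.11.5 and matplotlib 3.10.9 were used, and the ratio script was tested on simulated data. A result among the other sterol genes is not reported here.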

Additional observations from a re-analysis of the deposited data

How the results depend on the processing

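No branch ratio called here changed direction under any alternative run except where stated, and no called member's ratio crossed 1. No paired analysis was possible because each group has 1 library. Of 240 alternative values for counts, branch ratios and shares, 171 stayed within the limits set and 69 moved; of 1134 for single members 41 moved.

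KO over control: the count of members higher fell from 4 to 1 at an average of at least 50 CPM and to 1 at a fold of 2. It was 6 at a mitochondrial maximum of 6%, with no filter, thinned and without cells with a Dlx5, Dlx6 or Msx2 UMI, 5 at an eGFP minimum of 20 UMIs, and 3 as a mean over cells and without the low KO tercile. The sterol ratio (1.12) was 1.06 with contractile, mitochondrial and ribosomal protein UMIs left out of the total, 1.06 as a mean over cells, 1.06 with cells thinned, 1.07 as a median of members and 1.17 without the low KO tercile. The fatty acid ratio (1.34) was, in the same order without the mean over cells, 1.26, 1.30, 1.40 and 1.30, and 1.17 without Scd2 and 1.49 without members sharing sequence. Their ratio (1.19) was 1.25 as a mean over cells, 1.08 without Scd2 and Fdps, 1.31 as medians, 1.36 without members sharing sequence and 1.11 without the low KO tercile.

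KO low over high: members higher (3) were 0 at a fold of 2, 6 thinned and 5 for the outermost 20% of cells at either end. Members lower (2) were 4 with the reduced total, 1 as a mean over cells, 5 at a mitochondrial maximum of 6%, 4 with no filter, 1 at 50 CPM, 0 at a fold of 2 and 1 thinned. The sterol ratio (0.806) was 0.766 with the reduced total, 0.769 at 6%, 0.840 thinned, 0.854 without Acta2 and Tagln in the share, 0.890 without Fdps, 0.929 as a median, 0.878 without members sharing sequence and 0.727 without cells with a Dlx5, Dlx6 or Msx2 UMI. The fatty acid ratio (1.16) was 1.10 with the reduced total, 1.21 for the outermost 20%, 1.05 without Scd2 and 1.28 as a median. Their ratio (1.44) was 1.18 without Scd2 and Fdps and 1.55 without the Dlx or Msx2 cells. Control low over high, without those cells: 1 member lower (0 with them) and a sterol ratio of 1.07 (1.13).

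Matched share: members higher (3) were 6 at 6%, 5 with no filter, 0 at a fold of 2 and 7 without the Dlx or Msx2 cells; members lower (0) were 1 with the reduced total and 1 at 6%. The sterol ratio (1.20) was 1.12 as a mean over cells, 1.29 at 6%, 1.10 thinned, 1.11 without Fdps, 1.12 without members sharing sequence and 1.30 without the Dlx or Msx2 cells. The fatty acid ratio (1.23) was 1.12 without Scd2 and 1.32 without members sharing sequence. Their ratio (1.02) was 1.10 thinned, 1.18 without members sharing sequence and 0.953 without the Dlx or Msx2 cells, so its side of 1 was not settled. Shares of control and KO cells with a sterol UMI (78.5% and 77.5%) were 93.0% and 95.4% unthinned and 61.3% and 61.7% at 3000 UMIs; for the fatty acid branch (81.3% and 87.9%) they were 95% and 98.3%, and 63.6% and 72.5%. The causes were not tested. The alternatives without shared barcodes, Dlx or Msx2 cells, the low KO tercile or members sharing sequence were added after seeing the data. With 1 library per genotype, depth limits only counting error; the spread between mice is unknown.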
